A study of Mus musculus with 18 samples.

Results

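The hippocampus of mice after 28 days of intermittent hypoxia treatment (IHT) was set directly against that of mice after 5 days of it. The comparison was made between the 3 arrays labelled IH28D and the 3 labelled IH5D, 6 of the 18 arrays of the series, over all probe sets of the Affymetrix mouse genome array. Both groups were male mice of strain C57Bl/6 by the labels and C57BL/6J by the methods, without a genetic change, 10 weeks old when the experiments began. Both breathed the same cycles of 3 min, in which 1 min of nitrogen took the inspired oxygen from 21% to 5% and 2 min of room air brought it back, for 8 h a day from 9:00 to 17:00. Both were killed directly after the final session, without hours of recovery. IH28D mice were older at death by the additional days of treatment, and within this pair of groups the length of IHT and the age cannot be told apart. Untreated mice (Ctrl) and mice kept for 28 days in normoxia (Ctrl28), 3 arrays each, stand beside them as a reference. They do not enter the difference, but their spread enters the test. The remaining 6 arrays, of mice with 2 days of recovery after IHT (IH5DR2) and of mice aged 12 months, only lend their spread to the test. The labels give no word on whether arrays of a group stem from different animals, so p-values cover the scatter among arrays, which may be technical.

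Repeated falls in oxygen, as in sleep apnea, reach neurons in several ways. Cells that lack oxygen stabilise hypoxia-inducible factors (HIF), which bind the short motif ACGTG near genes of glycolysis and blood vessel growth. Firing of neurons switches on immediate early genes such as Fos and Arc within minutes, stress hormones act through the glucocorticoid receptor on targets such as Sgk1, and proteins that fail to fold in the endoplasmic reticulum (ER) call up chaperones such as Hspa5. The direct comparison addresses how these responses stand at the end of a short and of a prolonged course.

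No gene passed the test between IH28D and IH5D. Of 11656 genes tested with limma over the 18 arrays, 0 (0%) reached an adjusted p below 0.05, and the smallest adjusted p was 0.571. Without adjustment 837 genes had a p below 0.05, which is 7.18% of those tested. Of these, 370 (3.17%) had a higher and 467 (4.01%) a lower signal in IH28D. These counts rest on the pooled spread of the 18 arrays. Without the Ctrl28 group 1368 genes had an unadjusted p below 0.05 and 0 passed adjustment. With the 6 arrays alone 1438 did and 1 passed, Jpt1. In 1103 genes (9.46%) all 3 IH28D arrays lay above all 3 IH5D arrays, and in 1079 (9.26%) they lay below.

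The differences were small for most genes. The median log2 difference (IH28D minus IH5D) over all tested genes was -0.0084, with a median standard error (SE) of 0.201. The 95% interval of the difference lay within 1 of 0 on the log2 scale for 10061 genes, and 48 genes differed by more than 1. The values of single genes below are therefore those of genes that did not pass the adjusted test, each a log2 difference ± SE from limma with 3 arrays per group. Counts at an unadjusted p below 0.05 in a gene list are to be read against the shares just given. Those shares move with the setting. Without single IH28D or IH5D arrays, 239 to 378 of the 11656 genes were higher and 266 to 580 lower. With median centring 286 were higher and 340 lower, and with quantile scaling 344 and 560. Each value is from the brightest probe set of the gene. Of 120 named genes with more than 1 probe set above the minimum signal, 52 had another probe set on the other side of 0, so that a difference from 1 probe set need not hold for the others of that gene. Some of these values are given below. The plot of differences against signal shows where the genes lie.

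**Figure D1:**
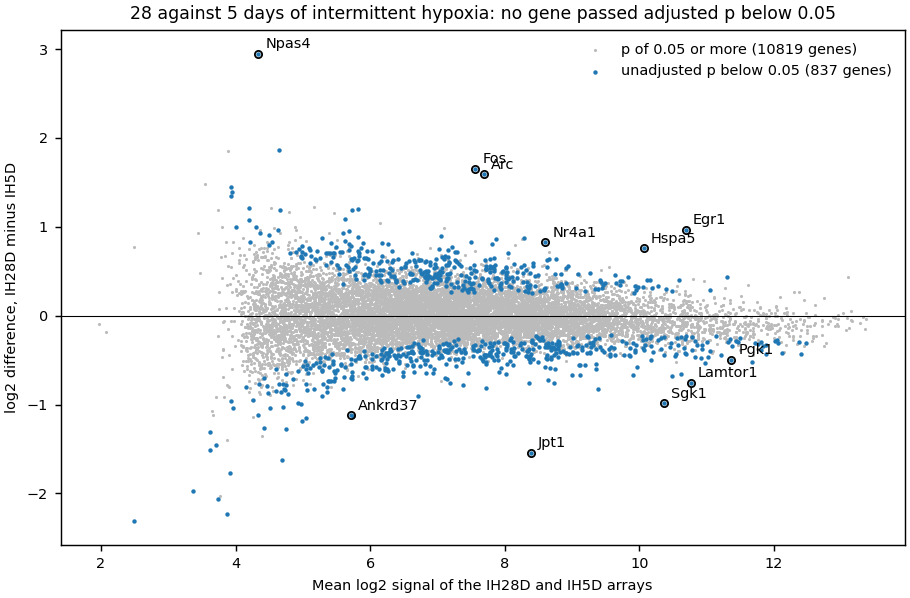
log2 difference (IH28D minus IH5D, vertical axis) against the mean log2 signal (horizontal axis) for 11656 genes, with the 837 genes of unadjusted p below 0.05 in blue and 11 genes named. Fos and Arc lie high among genes of middle signal, Sgk1 lies at -0.99 among genes of high signal, and no gene passed adjusted p below 0.05.

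The 6 arrays were alike in level of signal and differed in a measure of RNA. The median signal was 20.4 to 23.2 on the 6 arrays, and log2 signals correlated at 0.967 to 0.976 within IH28D, 0.974 to 0.976 within IH5D and 0.962 to 0.979 between the groups, across probe sets, which are not independent. The gap between the 3′ and 5′ control probe sets of actin and Gapdh, which widens as RNA degrades, was 0.529, 0.459 and 0.535 log2 units on the IH5D arrays and 0.328, 0.422 and 0.338 on the IH28D arrays. These do not overlap, and the exact two-sided permutation test gave p = 0.1, the smallest that 3 against 3 arrays allow. With this gap as a covariate in the model again 0 genes passed, and 1094 had an unadjusted p below 0.05. Markers of the tissue were present: the summed signal of 21 dentate granule cell genes was 6045 to 6998 on the 6 arrays.

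Immediate early genes had the second highest median of the 52 lists, after the choroid plexus markers described below. These genes encode transcription factors and synaptic proteins made within minutes of neuronal firing. Of 39 tested, 11 were higher in IH28D and 1 lower at an unadjusted p below 0.05, against 3.17% and 4.01% of all genes, and none passed the adjusted test. In 15 of them the IH28D arrays lay above all IH5D arrays, and in 1 below, against 9.46% and 9.26% of all genes. The median log2 difference of the list was 0.32, beside -0.0084 over all genes, and 32 members were above 0. For Ctrl28 minus Ctrl the median of the list was -0.045, beside -0.077 over all genes.

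Fos, a subunit of the transcription factor AP-1 that is used as a marker of recently active neurons, had signals of 64.1, 146 and 129 on the IH5D arrays and 306, 291 and 421 on the IH28D arrays. The groups did not overlap, and the log2 difference was 1.65 ± 0.56 (limma adjusted p = 0.575). Arc, which encodes a protein that regulates AMPA receptor traffic at active synapses, stood at 73.6, 148 and 156 in IH5D and at 305, 283 and 539 in IH28D. All 3 IH28D arrays were again the higher ones, with a log2 difference of 1.59 ± 0.48 (adjusted p = 0.571). The first IH5D array was the lowest of the 6 for both genes and the third IH28D array the highest.

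Egr1, a zinc finger transcription factor of synaptic plasticity, had the smallest p of the list. Its signals were 1081, 1133 and 1353 in IH5D and 1970.3, 1997 and 3153 in IH28D, a log2 difference of 0.97 ± 0.23 (limma adjusted p = 0.571). The untreated Ctrl arrays lay between the groups, at 1546, 1849.8 and 1723. Its relative Egr4 stood at 29.3, 35.6 and 23.2 in IH5D and at 50.4, 45.8 and 64.3 in IH28D. Its log2 difference was 0.87 ± 0.26, and the Ctrl28 arrays, at 22.1, 20.3 and 12.7, were below both groups.

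The orphan nuclear receptor gene Nr4a1 stood at 244, 308 and 330.2 in IH5D and at 455, 438 and 697 in IH28D, with a log2 difference of 0.83 ± 0.32. Junb, a partner of Fos in AP-1, stood at 50.8, 65.8 and 70.4 in IH5D and at 96.2, 92.1 and 95.7 in IH28D, a log2 difference of 0.62 ± 0.20. Neither gene overlapped between the groups. Npas4, a transcription factor gene that answers to calcium entry, had the highest log2 difference of all genes, 2.95 ± 1.03, but 1 array sets its size. Its IH5D signals were 0.496, 16.7 and 46.6, against 52.0, 51.6 and 66.1 in IH28D, and the lowest of these is far under the minimum mean signal of 20.

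The exception was Jund, another AP-1 gene, which is expressed steadily rather than induced. Its signals were 703, 943 and 752 in IH5D and 534, 459 and 661 in IH28D, so that it was lower in all 3 IH28D arrays, with a log2 difference of -0.54 ± 0.18. Jun itself had no settled direction, since its 2 probe sets, of nearly equal signal, gave 0.32 ± 0.22 and -0.29. Bdnf, the neurotrophin, had a log2 difference of 0.32 ± 0.29 on its brightest probe set, with overlapping arrays, and of 0.40 without overlap on the other. Homer1, a synaptic scaffold gene of the metabotropic receptor list, had one of 0.47 ± 0.23 on its brightest probe set. Another Homer1 probe set gave 1.55, from 70.8, 117 and 85.5 in IH5D and 152, 153 and 774 in IH28D, where the third IH28D array sets the size, and which transcript form each probe set reads was not examined.

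The count of immediate early genes depended on 2 arrays. Without the third IH28D array 6 members were higher at an unadjusted p below 0.05 and 26 were above 0, with a median of 0.18. Without the first IH5D array 7 were higher and the median was 0.20. Without each of the other 4 arrays in turn, 10 to 12 were higher. Arrays of 1 group were also far apart elsewhere in the series: Fos stood at 284, 278 and 70.2 in Ctrl28, and at 79.3, 67.6 and 324 in IH5DR2.

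**Figure D2:**
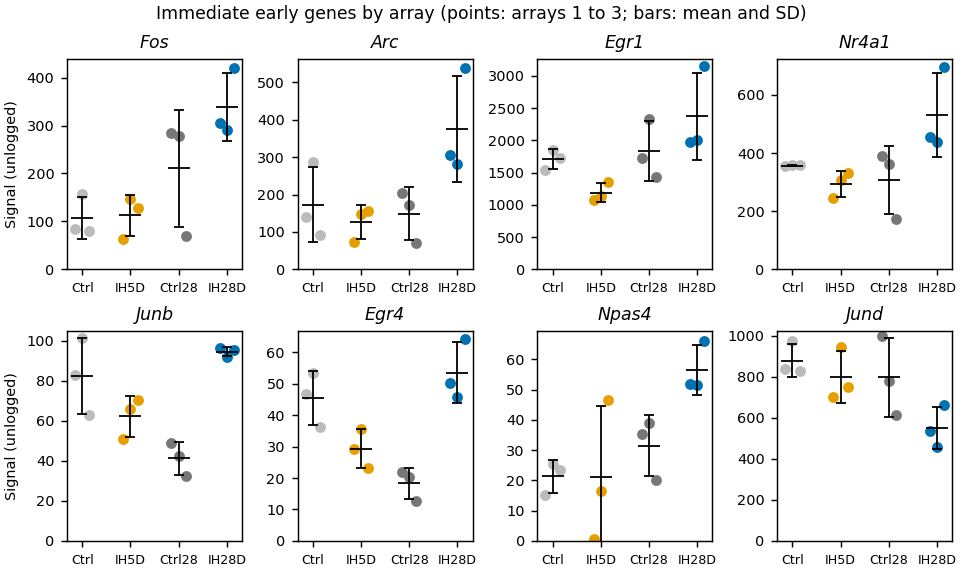
Unlogged signal (vertical axis, from 0) of 8 immediate early genes in Ctrl, IH5D, Ctrl28 and IH28D (horizontal axis), with 1 point per array and bars for mean and SD of 3 arrays, cut off at 0 for Npas4. The IH28D points of Fos, Arc, Egr1, Nr4a1, Junb, Egr4 and Npas4 lie above all IH5D points, and those of Jund lie below.

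The hypoxia response genes had few members at an unadjusted p below 0.05. Of 40 tested genes of the HIF pathway and its targets, 1 was higher and 2 were lower in IH28D, beside the 3.17% and 4.01% of all genes, and the median was -0.035. The lower genes were Ankrd37 and Pgk1, and the higher one was P4ha1, which encodes a subunit of the enzyme that hydroxylates proline in collagen. Each was on the list as a gene of the HIF pathway or a target of HIF, so the called members lay on both sides of 0. Promoters of Ankrd37 and Pgk1 are shown because each holds the core of the hypoxia response element, ACGTG, more than once. The windows run from 250 bases before to 50 after the annotated start, are taken from RefSeq (GRCm38.p6), are written 5′ to 3′ along the gene, and carry in capitals each match to ACGTG, or to CACGT where the match is on the other strand. Ankrd37 lies at chr8:45999801-46000100 on the minus strand with matches at positions -241 and -6 from the start, and Pgk1 at chrX:106186850-106187149 on the plus strand with matches at -150 and -131.
Ankrd37: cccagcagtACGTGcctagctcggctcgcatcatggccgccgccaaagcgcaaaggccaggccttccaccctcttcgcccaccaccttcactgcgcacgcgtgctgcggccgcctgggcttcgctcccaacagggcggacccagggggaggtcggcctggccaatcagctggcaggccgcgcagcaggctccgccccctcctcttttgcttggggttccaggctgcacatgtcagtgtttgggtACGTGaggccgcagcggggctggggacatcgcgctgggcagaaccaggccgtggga
Pgk1: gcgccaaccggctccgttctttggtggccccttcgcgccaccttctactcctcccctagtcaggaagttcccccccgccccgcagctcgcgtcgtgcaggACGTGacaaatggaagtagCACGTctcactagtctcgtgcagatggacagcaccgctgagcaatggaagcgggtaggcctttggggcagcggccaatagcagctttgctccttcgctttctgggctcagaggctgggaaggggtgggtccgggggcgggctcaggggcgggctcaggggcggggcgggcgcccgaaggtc

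Ankrd37, which encodes a small ankyrin repeat protein, had signals of 66.8, 102 and 68.1 in IH5D and 33.0, 44.9 and 30.6 in IH28D. All IH28D arrays were lower, with a log2 difference of -1.12 ± 0.25 (limma adjusted p = 0.571). The Ctrl arrays, at 46.5, 51.7 and 59.5, lay below the IH5D arrays and above the IH28D arrays. Pgk1, the glycolytic enzyme phosphoglycerate kinase, stood at 2857, 3321 and 3254 in IH5D and at 2264, 2151 and 2273 in IH28D. Its log2 difference was -0.49 ± 0.14 on the probe set of highest signal, while another 2 probe sets of the gene gave -0.19 and -0.17.

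P4ha1 stood at 122, 114 and 96.7 in IH5D and at 166, 131 and 173 in IH28D, a log2 difference of 0.50 ± 0.19. The central genes of the pathway had intervals that include 0. Hif1a, the oxygen-regulated subunit of HIF, had a log2 difference of 0.027 with a 95% interval of -0.33 to 0.38. Vegfa, the vessel growth factor, stood at 147, 114 and 95.3 in IH5D and at 107, 106 and 76.0 in IH28D, and its log2 difference of -0.30 had an interval of -0.73 to 0.14. The glucose transporter gene Slc2a1 gave -0.35 (-0.78 to 0.074), the pyruvate dehydrogenase kinase gene Pdk1 gave 0.085 (-0.22 to 0.39), the lactate dehydrogenase gene Ldha gave -0.023 (-0.36 to 0.32) and the mitophagy receptor gene Bnip3 gave -0.14 (-0.41 to 0.12).

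Matches to ACGTG were common in promoters at large. It was held on either strand by 19.6% of the 32851 promoters read. Among the 9472 tested genes with a promoter, 29.8% held it in at least 1 window, against 29.6% of 307 genes that were higher in IH28D at an unadjusted p below 0.05 and 34.4% of 378 that were lower. The hypoxia response list, whose members were written down as HIF genes, held it in 21 of 33 genes. The cyclic AMP response element TGACGTCA, through which CREB acts on activity genes and which does not contain ACGTG, was in 1.79% of all promoters, in 3.56% of tested genes, in 5.54% of the higher and 3.97% of the lower ones, and in 3 of 30 immediate early genes. These matches describe letters in a window and not binding.

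Sgk1 had the smallest p of all genes. It encodes a kinase induced by glucocorticoids. Sgk1 signals were 2103, 2134 and 1422 in IH5D and 956, 975 and 881 in IH28D, with a log2 difference of -0.99 ± 0.21 (limma adjusted p = 0.571). The groups did not overlap, while the Ctrl arrays stood at 1749, 1767 and 919. Other classical targets of these hormones had intervals that include 0. Fkbp5, a chaperone gene of the glucocorticoid receptor, had a log2 difference of -0.11 with an interval of -0.42 to 0.21. Tsc22d3, which encodes the leucine zipper protein GILZ, had one of -0.097 (-0.44 to 0.25), and the transcription factor gene Zbtb16 one of 0.32 (-0.023 to 0.66). Of 24 glucocorticoid targets tested, 1 was higher and 1 lower at an unadjusted p below 0.05, and the median was -0.11. The higher one was Per1, also a member of the clock and immediate early lists.

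Clock genes were compared between mice killed at the same hour. Of 21 tested, 3 were higher and 1 lower at an unadjusted p below 0.05, and the median was 0.16. Per1, a repressor of the clock that also answers to activity and to glucocorticoids, stood at 181, 184 and 177 in IH5D and at 231, 266 and 306 in IH28D, a log2 difference of 0.56 ± 0.22. Dbp, an output transcription factor of the clock, was on the other side of 0, at 1168, 1198 and 1319.8 in IH5D and 927, 786 and 759.7 in IH28D on its brightest probe set. Its log2 difference was -0.58 ± 0.23 on that probe set and -0.20 on the other. Arntl, which encodes the activator BMAL1, had a log2 difference of 0.41 ± 0.18, and the repressor gene Cry2 one of 0.28 ± 0.13. Per2 had a difference of -0.063 with an interval of -0.42 to 0.29, and 0.56 on a dimmer probe set. Nr1d1, a repressor of Arntl, gave 0.66 (-0.70 to 2.03) at signals near the minimum. Without the third IH28D array 0 clock genes were higher and 0 lower at an unadjusted p below 0.05.

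Chaperone genes lay on both sides of 0. Of 80 heat shock and chaperone genes, 8 were higher and 6 lower in IH28D at an unadjusted p below 0.05, against 3.17% and 4.01% of all genes, and the median was 0.084. Without the third IH28D array 3 were higher, and without the first IH5D array 4. Among the higher ones were genes of ER chaperones and of their helpers, and among the lower ones were subunits of the cytosolic chaperonin. This division by role was made after the values were seen.

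Hspa5, the main ER chaperone BiP, had signals of 751, 966 and 774 in IH5D and 1308, 1058 and 1981 in IH28D, with a log2 difference of 0.76 ± 0.18 (limma adjusted p = 0.571). Another 2 probe sets gave 0.66 and, at the lowest signal, -0.072. Ctrl28 arrays stood at 1249, 1502 and 1473, within the range of IH28D, and Ctrl arrays at 788, 648 and 575. Pdia6, a disulphide isomerase of the ER, stood at 203, 242 and 218 in IH5D and at 283, 239.6 and 429 in IH28D, with overlap by 1 array and a log2 difference of 0.48 ± 0.18. The ER cochaperone gene Dnajc3 had a difference of 0.54 ± 0.22 and Dnajc1 one of 0.47 ± 0.18, both without overlap, and Hsp90b1, the ER form of Hsp90, had one of 0.28 ± 0.17.

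Promoters of Hspa5 and Pdia6 are shown because both hold an ER stress response element, the letters CCAAT and CCACG with 9 bases between them, in capitals below. This motif was chosen after the values were seen. The windows are from RefSeq (GRCm38.p6), of the same extent as above and both on the plus strand, at chr2:34771840-34772139 for Hspa5 with a match at position -65 and at chr12:17266339-17266638 for Pdia6 with a match at -98. On either strand the motif was in 0.119% of all promoters, in 14 of the 9472 tested genes, in 4 of the 307 higher genes and in 1 of the 378 lower ones. The chaperone list held it in 6 of 69 genes. Hspa5 and Pdia6, whose values had been seen before the choice, count among the 4 higher genes. The shares are therefore no test of the motif.
Hspa5: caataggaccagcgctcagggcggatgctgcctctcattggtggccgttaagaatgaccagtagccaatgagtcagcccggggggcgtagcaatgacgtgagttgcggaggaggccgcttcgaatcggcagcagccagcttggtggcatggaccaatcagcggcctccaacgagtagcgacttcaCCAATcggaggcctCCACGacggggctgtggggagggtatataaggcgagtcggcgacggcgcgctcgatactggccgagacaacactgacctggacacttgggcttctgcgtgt
Pdia6: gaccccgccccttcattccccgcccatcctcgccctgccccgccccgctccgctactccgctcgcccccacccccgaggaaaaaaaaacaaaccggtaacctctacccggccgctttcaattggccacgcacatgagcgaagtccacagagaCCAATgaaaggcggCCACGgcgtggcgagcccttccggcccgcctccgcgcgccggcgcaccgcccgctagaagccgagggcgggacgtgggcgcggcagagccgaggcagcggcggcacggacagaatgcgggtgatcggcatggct

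Chordc1, a cochaperone of Hsp90, stood at 217, 235 and 242 in IH5D and at 295, 340.4 and 410.5 in IH28D, a log2 difference of 0.58 ± 0.18 without overlap. The mitochondrial chaperone gene Hspd1 had a difference of 0.39 ± 0.16. On the other side, Cct3, a chaperonin subunit, stood at 1511, 1589.5 and 1539 in IH5D and at 1153, 1081 and 1194 in IH28D, a log2 difference of -0.44 ± 0.16. The subunit genes Cct2 and Cct6a gave -0.31 ± 0.11 and -0.24 ± 0.10. Hspbap1, a gene of low signal that encodes a protein binding Hspb1, stood at 44.8, 43.0 and 37.8 in IH5D and at 19.4, 11.5 and 23.3 in IH28D, a log2 difference of -1.27 ± 0.30. Ahsa2, which resembles the Hsp90 activator Ahsa1, was named after its values were seen and had signals of 114, 118 and 109 in IH5D and 158, 204 and 224 in IH28D. Its log2 difference of 0.77 ± 0.16 had the second smallest p of all genes.

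**Figure D3:**
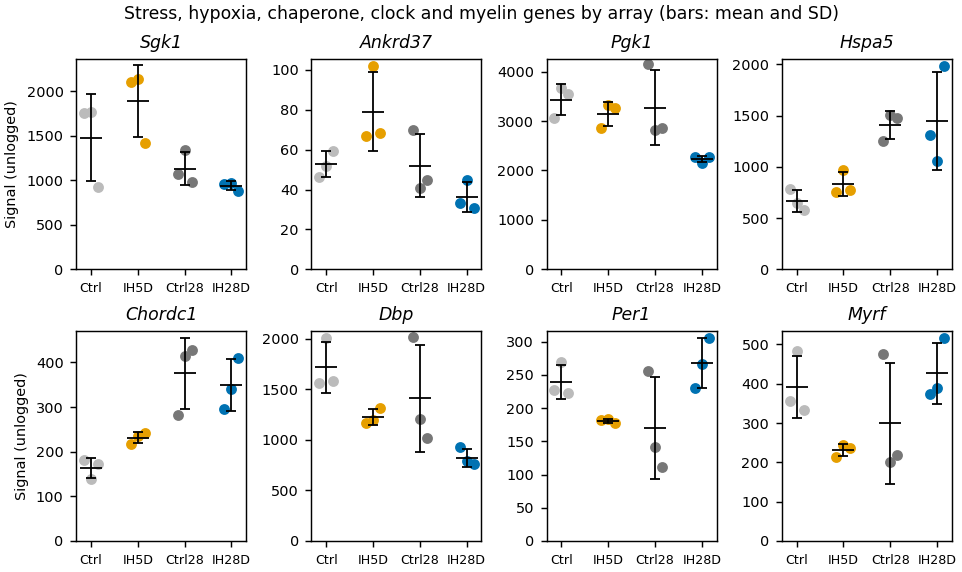
Unlogged signal (vertical axis, from 0) of 8 genes in Ctrl, IH5D, Ctrl28 and IH28D (horizontal axis), with 1 point per array and bars for mean and SD of 3 arrays. IH28D points lie below all IH5D points for Sgk1, Ankrd37, Pgk1 and Dbp and above them for Hspa5, Chordc1, Per1 and Myrf, and the Ctrl28 points of Hspa5 lie within the range of IH28D.

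Genes of mitochondria and ribosomes had medians below that of all genes. The medians for Ctrl28 minus Ctrl were also below 0, beside -0.077 over all genes. They were -0.12 for cytosolic ribosomal proteins, -0.12 for oxidative phosphorylation and -0.25 for mitochondrial ribosomal proteins. The Ctrl28 arrays stood apart in their RNA, as described below. All 42 cytosolic ribosomal protein genes tested were below 0, with a median of -0.23, and 8 were lower at an unadjusted p below 0.05. In 2 of the 42 all IH28D arrays lay below all IH5D arrays, against 9.26% of all genes. With quantile scaling 39 were below 0, the median was -0.14 and 5 were lower, and with median centring the values were 42, -0.25 and 2. Of 80 genes of oxidative phosphorylation, 72 were below 0, with a median of -0.21, and 4 were lower at an unadjusted p below 0.05 and 0 higher, while with median centring 0 were lower. Of 76 mitochondrial ribosomal protein genes 65 were below 0, with a median of -0.13 and 4 lower. The summed signals of these 3 lists were lowest on the third IH28D array, at 92757 for cytosolic ribosomal proteins against 114579 to 148330 on the IH5D arrays. Without that array the medians were -0.017, -0.060 and -0.075, and 1, 0 and 1 members were lower. Without the first IH28D array 18 cytosolic ribosomal genes and 16 of oxidative phosphorylation were lower, beside 580 of all genes.

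Single members overlapped in part. Rpl27a, a protein of the large ribosomal subunit, stood at 143, 196 and 195 in IH5D and at 109, 119 and 98.9 in IH28D, with a log2 difference of -0.70 ± 0.22 and no overlap. Rps20, of the small subunit, stood at 3178, 4578 and 4183 in IH5D and at 3434, 2689.9 and 2205 in IH28D, with overlap, and Rpl7, of the large subunit, gave -0.27 ± 0.11. Cycs, which encodes cytochrome c, stood at 3856, 4236 and 4352 in IH5D and at 3483, 3193 and 3127 in IH28D, a log2 difference of -0.34 ± 0.15, while another 2 probe sets of fair signal gave -0.031 and -0.21. Ndufs8 of complex I (-0.46 ± 0.21) and Atp5c1 of the ATP synthase (-0.32 ± 0.14) had overlapping arrays. Of the mitochondrial ribosomal genes, Mrpl2 (-0.42 ± 0.14) and Mrpl17 (-0.45 ± 0.17) did not overlap, and Mrpl11 (-0.37 ± 0.17) did.

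Enzymes of central metabolism gave a few members. In the tricarboxylic acid cycle 2 of 24 genes were lower at an unadjusted p below 0.05, and the median was -0.084. These were both malate dehydrogenase genes. Mdh2, the mitochondrial enzyme, stood at 5094, 5524 and 4943 in IH5D and at 4342, 3605 and 3677 in IH28D, a log2 difference of -0.42 ± 0.14. Mdh1, the cytosolic enzyme, gave -0.43 ± 0.14 on its brightest probe set and -0.035 over the mean of its probe sets. Fh1, which encodes fumarase, gave -0.27 ± 0.14. Without the first IH28D array, or without the first IH5D array, 4 genes of the cycle were lower. In glycolysis 2 of 14 were lower, Pgk1 above and the brain aldolase gene Aldoc, which stood at 6119.8, 6666 and 6329 in IH5D and at 5456, 4879.6 and 5175 in IH28D. The mutase gene Pgam1 gave -0.15 ± 0.090. The median of glycolysis was -0.12.

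Regulators of chromatin and transcription were on the other side of 0. Of 85 genes of chromatin remodelers and histone enzymes, 10 were higher and 1 lower at an unadjusted p below 0.05, against 3.17% and 4.01%. The arrays did not overlap upwards in 20 and downwards in 5, against 9.46% and 9.26% of all genes. The median was 0.15, and 63 were above 0. It was 0.19 for Ctrl28 minus Ctrl, beside -0.077 over all genes. Kdm7a, a histone demethylase gene, stood at 152, 144 and 113 in IH5D and at 191, 282 and 256 in IH28D, a log2 difference of 0.83 ± 0.26. Kmt2e, of the MLL family, gave 0.47 ± 0.15 and Arid1a, a subunit of the BAF remodelling complex, 0.30 ± 0.11. Among 260 Zfp genes, which encode zinc finger proteins, 14 were higher and 5 lower, with a median of 0.13. Their median for Ctrl28 minus Ctrl was 0.20. Zfp36l1, whose RNA-binding protein hastens the decay of messages, stood at 189, 252 and 255 in IH5D and at 323, 278 and 316 in IH28D, a log2 difference of 0.41 ± 0.13. Zfp740 (0.48 ± 0.15) and Zfp664 (0.44 ± 0.14), both without overlap, completed the 3 smallest p of this list. Without the second IH28D array 6 Zfp genes were higher, and without the third 5 chromatin genes, beside 239 and 311 of all genes.

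Genes of RNA binding and protein turnover gave further examples. Of 35 neuronal RNA-binding protein genes 3 were higher and 1 lower at an unadjusted p below 0.05, with a median of 0.11. Their median for Ctrl28 minus Ctrl was 0.50. Elavl3, a neuronal Hu protein gene, stood at 288, 267 and 246 in IH5D and at 361, 377 and 401 in IH28D, a log2 difference of 0.51 ± 0.14. Fxr1, a relative of the fragile X protein gene, gave 0.90 ± 0.29 on its brightest probe set and 0.38 over the mean of its probe sets. Cpeb3, a regulator of translation at synapses, gave 0.51 ± 0.20 on its brightest probe set and 0.35 on a dimmer one. Another Cpeb3 probe set of similar signal gave -0.66, from 209, 210 and 223 in IH5D and 138, 128 and 139 in IH28D. The direction of Cpeb3 thus turns with the probe set. Of 88 genes of ubiquitin conjugation 4 were higher and 0 lower, with a median of 0.077. Usp19, a deubiquitinating enzyme gene, stood at 177, 184 and 167 in IH5D and at 251, 222 and 294 in IH28D, a log2 difference of 0.53 ± 0.13, and another probe set of similar signal gave 0.11. The related genes Usp21 and Usp28 gave 0.48 ± 0.18 and 0.47 ± 0.19. Without the second or the third IH28D array 2 ubiquitin genes were higher.

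Splicing and proteasome genes were less uniform. Of 84 splicing factor genes 4 were higher and 6 lower at an unadjusted p below 0.05, with a median of 0.082, and without single arrays of either group 3 to 7 were higher and 1 to 4 lower. The kinase gene Prpf4b (0.55 ± 0.18) and Hnrnpm, of a ribonucleoprotein (0.43 ± 0.16), were higher, and Snrpa1, of the U2 particle (-0.33 ± 0.12), was lower, each without overlap. Other Snrpa1 probe sets gave -0.46 and 0.18. Of 45 proteasome genes 0 were higher and 3 lower, with a median of -0.11. These were Psmd11 (-0.40 ± 0.14) and Psmc4 (-0.49 ± 0.21) of the regulatory particle and Psma6 (-0.48 ± 0.22) of the core. Other Psmd11 probe sets above the minimum signal gave -0.044, -0.011 and 0.32. The other probe set of Psmc4 gave -0.15, and those of Psma6 above the minimum gave -0.42 and -1.16. Without the first IH28D array 7 proteasome genes were lower, without the second or the third IH5D array 1 was, and without the third IH28D array the median was -0.039.

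**Figure D4:**
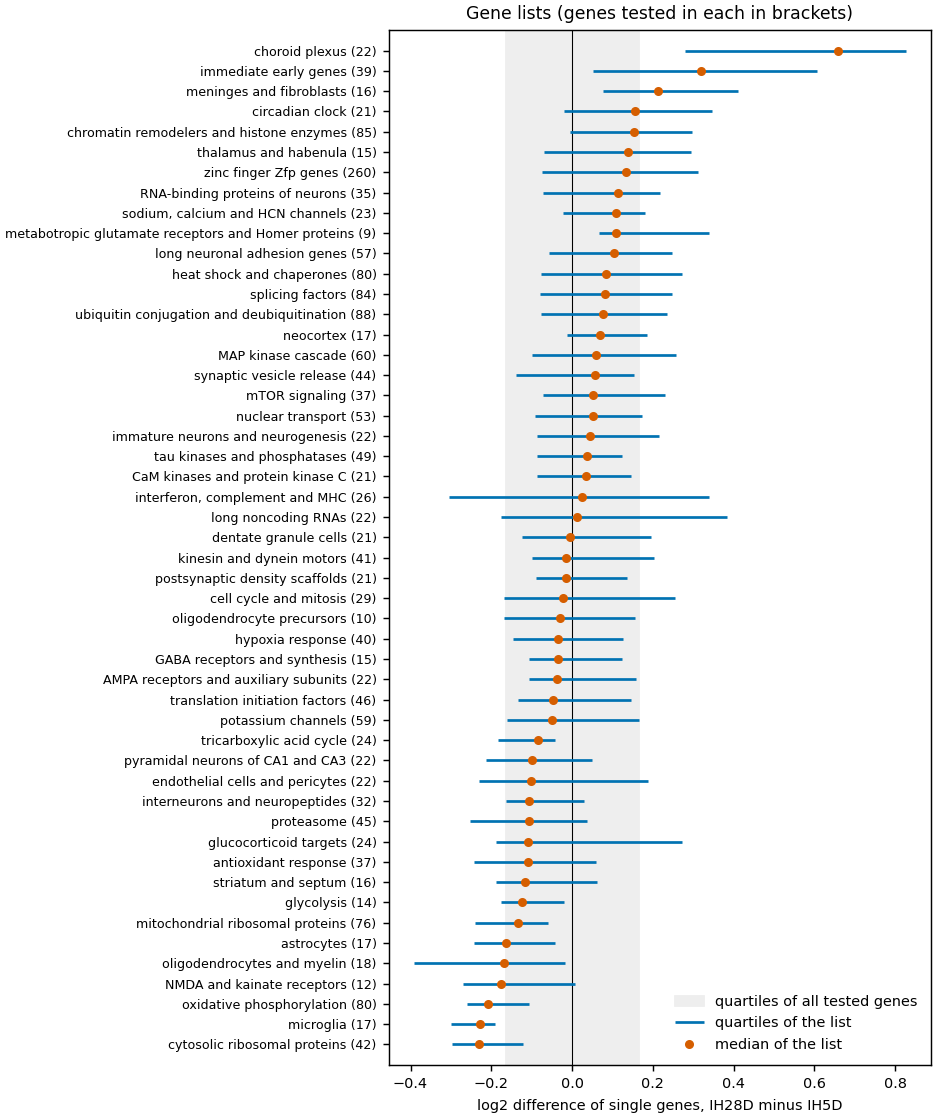
Median (points) and quartiles (lines) of the log2 differences (IH28D minus IH5D, horizontal axis) of the tested genes in each of the 50 lists with at least 9 tested genes (vertical axis), with the quartiles of all 11656 tested genes as a grey band. Immediate early genes lie at a median of 0.32 and cytosolic ribosomal proteins at -0.23, while the hypoxia response lies at -0.035.

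Kinases and phosphatases of tau, the microtubule protein that is phosphorylated in Alzheimer's disease, had few members at an unadjusted p below 0.05. Mapt, the gene of tau, stood at 888, 805 and 851 in IH5D and at 849.6, 839 and 1102 in IH28D, and its log2 difference of 0.12 had an interval of -0.16 to 0.40. Gsk3b, a main tau kinase gene, stood at 562, 555 and 639 in IH5D and at 669, 769.6 and 717 in IH28D. Its arrays did not overlap, with a log2 difference of 0.30 ± 0.14 on the brightest probe set and 0.17 over the mean of its probe sets. Csnk1a1, casein kinase 1 alpha, gave 0.30 ± 0.12 on one probe set and -0.027 on another of equal signal. Camk2a, a kinase of synaptic plasticity, gave 0.27 ± 0.14. Cdk5 gave -0.074 (-0.37 to 0.22).

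Ppp2r1a, the scaffold of the phosphatase PP2A, which removes phosphate from tau, stood at 7789.6, 7776 and 7885 in IH5D and at 6507, 5991 and 6504 in IH28D, with no overlap and a log2 difference of -0.30 (-0.68 to 0.066). Another 2 probe sets of high signal gave -0.31 and -0.33, and 2 of low signal 0.16 and -0.082. Ppp2ca, the catalytic subunit, gave -0.076 (-0.27 to 0.12). Of 49 tau kinases and phosphatases 2 were higher and 0 lower at an unadjusted p below 0.05, with a median of 0.037. Without the third IH28D array, or without the second IH5D array, 0 were higher and the median was -0.016 or -0.040. Mtor, a kinase of growth control, gave 0.069 (-0.19 to 0.33). Of 37 genes of mTOR signaling 0 were higher and 1 lower, which was Lamtor1, described below, and the median was 0.052. Sesn3, a sestrin gene, gave 0.33 ± 0.17 and Irs1, of insulin signaling, 0.40 ± 0.21.

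Receptor and synapse genes had few members at an unadjusted p below 0.05. Gria1 and Gria2, the main AMPA receptor subunits, had log2 differences of -0.027 (-0.60 to 0.54) and 0.41 (-0.25 to 1.07). Gria2 overlapped, at 1945, 1479 and 1293 in IH5D and 1689, 3004 and 1727 in IH28D. The single AMPA gene at an unadjusted p below 0.05 among 22 was Gria4, at 152, 107 and 113 in IH5D and 154, 301 and 176 in IH28D, a log2 difference of 0.71 ± 0.25. The auxiliary subunit genes Cacng2 and Shisa9 gave 0.42 ± 0.21 and 0.31 ± 0.18. Without the second IH28D array 0 AMPA genes were higher. Dlg4, the scaffold PSD-95, gave -0.059 (-0.35 to 0.23) on its brightest probe set and -0.099 on the next in signal. The mean over its probe sets was 0.21, with 0.79 from another probe set near the minimum signal. Pick1, which binds AMPA receptors, gave -0.15 (-0.53 to 0.23), the vesicular glutamate transporter gene Slc17a7 0.033 (-0.33 to 0.40), the vesicle protein gene Syp 0.011 (-0.68 to 0.70) and the glutamate dehydrogenase gene Glud1 -0.049 (-0.40 to 0.30).

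Of 12 NMDA and kainate receptor genes 1 was lower and 0 were higher. This was Grin2d, an NMDA receptor subunit gene found mostly in interneurons, at 57.9, 48.0 and 39.3 in IH5D and at 16.7, 31.3 and 17.8 in IH28D, a log2 difference of -1.18 ± 0.30. Its IH28D signals lie about the minimum of 20. The kainate receptor gene Grik5 gave 0.36 ± 0.20 and the NMDA subunit gene Grin2b -0.35 ± 0.31. Another Grin2b probe set of similar signal gave 0.18, so that its direction turns with the probe set. Of 21 postsynaptic density genes, 15 GABA genes and 9 metabotropic receptor and Homer genes, 0 had an unadjusted p below 0.05. Their smallest p were those of the scaffold genes Dlgap2 (0.34 ± 0.22), Dlg2 (0.20 ± 0.15) and Dlg1 (0.26 ± 0.21), of the GABA receptor genes Gabrb2 (0.37 ± 0.23) and Gabrb1 (0.28 ± 0.21) and the GABA transporter gene Slc6a11 (-0.22 ± 0.16), and of the glutamate receptor genes Grm5 (0.41 ± 0.23) and Grm8 (0.34 ± 0.28) beside Homer1. In the vesicle release list 1 of 44 was lower, the vesicle GTPase gene Rab3a, which gave -0.38 ± 0.16 on its brightest probe set and 0.20 on the other, so that its direction turns with the probe set. Rab3b gave 0.36 ± 0.20 and Unc13b, a priming factor gene, 0.46 ± 0.26. Without the third IH28D array 4 vesicle genes were lower, and without the second IH28D array or the second or the third IH5D array 0 were.

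Markers of cell types were compared in whole hippocampus, where fewer cells of a type and less RNA per cell cannot be told apart. Of 17 microglia genes 15 were below 0, with a median of -0.23, and 2 were lower at an unadjusted p below 0.05. Their median for Ctrl28 minus Ctrl was -0.34. Csf1r, the receptor on which microglia depend, stood at 1601, 1827 and 1795 in IH5D and at 1249.8, 1073 and 1530.0 in IH28D, a log2 difference of -0.45 ± 0.19 on its brightest probe set and -0.23 over the mean of its probe sets. Laptm5, a lysosomal protein gene of these cells, gave -0.33 ± 0.15, C1qb, of complement, -0.29 ± 0.15 and Aif1, which encodes IBA1, -0.23 (-0.79 to 0.33). The C1qb arrays overlapped on that brightest probe set, while its other probe sets gave -0.68 and -0.80 without overlap. The summed signal of the list was 4036, 4754 and 4489 on the IH5D arrays and 3917, 3119 and 3816 on the IH28D arrays, without overlap. The count of lower genes was 3 without the first IH28D array, 1 without the third array of either group, and 0 without the second array of either group or with median centring. The median was -0.37 without the first IH28D array and -0.14 without the second or the third.

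Myelin genes lay on both sides. Of 18 genes of oligodendrocytes and myelin 1 was higher and 3 were lower at an unadjusted p below 0.05, with a median of -0.17. Mog, a protein of the myelin surface, stood at 278, 273 and 328 in IH5D and at 246, 215 and 193 in IH28D, a log2 difference of -0.43 ± 0.13, and the tight junction gene Cldn11 gave -0.41 ± 0.15. Myrf, the transcription factor that drives myelin genes, was the higher one, at 214, 243 and 236 in IH5D and at 374, 389.9 and 517 in IH28D, a log2 difference of 0.87 ± 0.28. Mbp, a main myelin protein, gave -0.035 (-0.25 to 0.18). Without the third IH5D array the median of the list was -0.039 and without the second IH28D array -0.095, and 2 genes were lower in either case. Of 17 astrocyte genes 13 were below 0, with a median of -0.16, and 1 was lower at an unadjusted p below 0.05, Aldoc. Glul, the glutamine synthetase gene, gave -0.33 ± 0.16, Fgfr3 -0.28 ± 0.15 and Gfap -0.51 (-1.30 to 0.28). Without the second array of either group 0 were lower. Cldn5, of endothelial tight junctions, gave -0.25 (-0.61 to 0.11).

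In 22 pyramidal neuron genes the 1 at an unadjusted p below 0.05 was Bok, a relative of Bcl2, at 446, 464 and 490.5 in IH5D and 354, 317 and 329 in IH28D, a log2 difference of -0.49 ± 0.12. Ociad2 (-0.22 ± 0.11) and Pou3f1 (-0.29 ± 0.17) followed. Of 21 dentate granule cell genes 0 had an unadjusted p below 0.05, with Rfx3 at 0.65 ± 0.40 and Sipa1l2 at 0.27 ± 0.19. Of 22 genes of immature neurons 2 were higher and 1 lower. The lower one was the tubulin gene Tubb2b, at 1145, 1264 and 1231 in IH5D and 850.4, 621 and 837 in IH28D, a log2 difference of -0.67 ± 0.18, and the higher ones were the transcription factor gene Sox11 (0.48 ± 0.20) and the neuropeptide gene Tac2 (0.88 ± 0.38). Without the second IH5D array 0 were higher. Dcx, the usual marker of new neurons, gave 0.16 (-0.40 to 0.71), and -0.53 on a dimmer probe set.

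Tac2 is also among the markers of thalamus and habenula, which lie beside the hippocampus. Of these 15 markers 2 were higher and 0 lower at an unadjusted p below 0.05, Tac2 and Nwd2 (0.67 ± 0.18), with a median of 0.14, and Rora gave 0.69 ± 0.39. Their summed signal was 4672, 5659.9 and 5451 on the IH5D arrays and 5190.1, 5149.9 and 4866 on the IH28D arrays, which overlap, and 0 of them were under a signal of 20 on all 6 arrays. Their part in the difference of Tac2 was not tested.

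Choroid plexus, a tissue that borders the hippocampus and can be carried along in dissection, varied by array. The list had the highest median, 0.66, but 0 of 22 genes had an unadjusted p below 0.05 in either direction. In 0 did the groups not overlap, against 9.46% higher and 9.26% lower over all genes. The summed signal was 10773, 21309 and 3932 on the IH5D arrays and 19827, 20834 and 5563 on the IH28D arrays. Ttr, the thyroid hormone carrier that defines the tissue, stood at 9621, 14804 and 3084 in IH5D and at 14642, 15460.5 and 4774 in IH28D. Aqp1 (1.23 ± 1.13), Slc4a5 (1.22 ± 1.26) and Otx2 (0.93 ± 1.04), which had the smallest p of the list, have standard errors about as large as their differences. Without the third IH5D array the median of the list was -0.061. The third array of each group was the poorest in these markers, and the summed signal of the immediate early genes was highest on the third IH28D array. The part of the plexus in other differences was not tested.

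**Figure D5:**
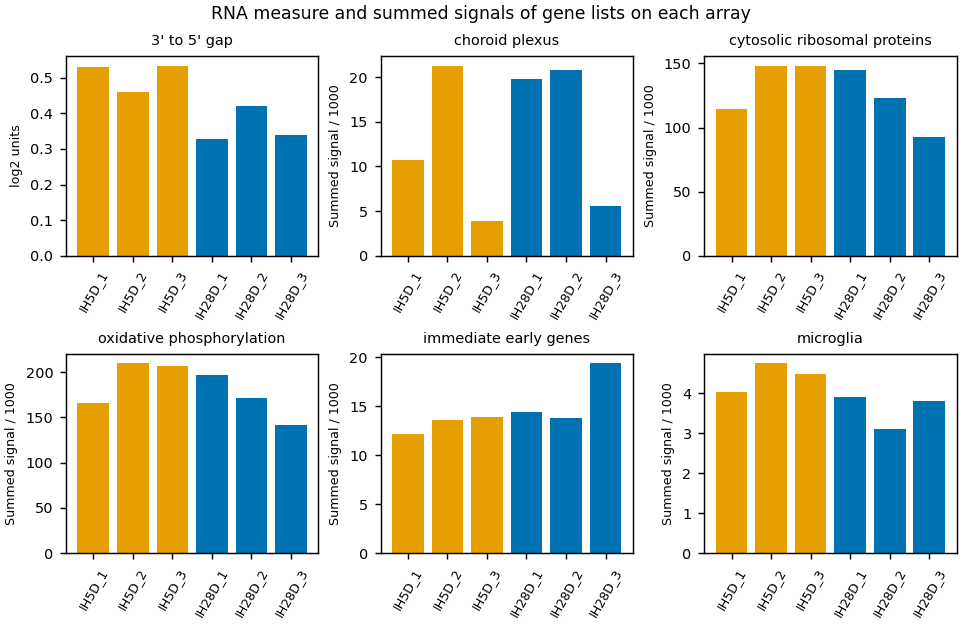
3′ to 5′ gap of control probe sets (log2 units) and summed unlogged signal, divided by 1000, of 5 gene lists (vertical axes, from 0) on each of the 3 IH5D arrays (orange) and 3 IH28D arrays (blue). The gap is lower on every IH28D array than on any IH5D array, the choroid plexus sum varies within both groups, and the ribosomal sum is lowest on the third IH28D array.

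Among single genes of good signal, 221 were higher and 273 lower with an unadjusted p below 0.05, a mean signal of at least 100 in a group and no overlap of the arrays. Genes from the ends of this ranking were named after their values were seen. Jpt1, a microtubule-associated protein gene, had the lowest difference among them, at 622, 459 and 652 in IH5D and 211, 197 and 181 in IH28D, a log2 difference of -1.54 ± 0.40. It rests on 1 of 3 probe sets, since the others gave 0.087 and 0.059. Lamtor1, a lysosomal anchor of mTOR complex 1, stood at 2018, 2366 and 2401 in IH5D and at 1469, 1322 and 1236 in IH28D, a log2 difference of -0.75 ± 0.22, while its other probe sets gave -0.20 and -0.13. Minar2 stood at 496, 483 and 566 in IH5D and at 404, 262 and 285 in IH28D, a log2 difference of -0.72 ± 0.17, and -0.45 over the mean of its probe sets.

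Other lower genes were Cebpd, a transcription factor gene of inflammation, at -0.72 ± 0.27, and Cox15, which is needed to make the heme of cytochrome oxidase, at -0.90 ± 0.27. The Cox15 value rests on 1 probe set, since another 2 above the minimum signal gave -0.049 and -0.31. Of the fixed set, the noncoding RNA Malat1 gave 0.39 (-0.35 to 1.12) and Dicer1, of miRNA processing, 0.083 (-0.20 to 0.36). Higher genes toward the end of the ranking were Rgs17, a regulator of G protein signaling, at 192, 169.7 and 160.4 in IH5D and 275, 458 and 249 in IH28D, and Pcm1, a centrosome satellite gene, at 231, 157 and 136 in IH5D and 248, 432 and 246 in IH28D. For both, the second IH28D array was far above the other 2, and the log2 differences were 0.86 ± 0.30 and 0.81 ± 0.26.

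Whether the step from 5 to 28 days of IHT differed from the step from Ctrl to Ctrl28 was tested in the same model, as the difference of the 2 differences. The labels give 28 days of rearing for Ctrl28 and no days for Ctrl, so the 2 steps need not span the same time. By this test 766 genes (6.57% of 11656) had a more positive and 359 (3.08%) a more negative difference in IHT than in normoxia, at an adjusted p below 0.05. The Ctrl28 arrays stood apart in the RNA measure, with 3′ to 5′ gaps of 2.39, 0.822 and 0.966 log2 units, against 0.339 to 0.469 in Ctrl, so that the RNA of Ctrl28 and its 28 days cannot be told apart. The count was 1125 with all arrays, 3331 without the first Ctrl28 array and 529 without the second Ctrl array.

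The genes with the most positive of these differences were lower in Ctrl28 than in Ctrl on every array. Kif1a, a motor of vesicle transport in axons, stood at 194, 161 and 189 in IH5D, at 205, 237 and 236 in IH28D, at 315, 201 and 205 in Ctrl and at 32.2, 82.0 and 65.4 in Ctrl28. Its difference beyond the controls was 2.40 ± 0.36 on the log2 scale (limma adjusted p = 0.000796), of which 0.32 came from IH28D minus IH5D. Nnat, an imprinted gene of neurons, stood at 304, 405 and 366 in IH5D, 596, 515 and 375 in IH28D, 688, 597 and 451 in Ctrl and 185, 124 and 112 in Ctrl28, with a difference beyond the controls of 2.51 ± 0.63 (adjusted p = 0.0189). Cacng3, an auxiliary AMPA receptor subunit gene (2.49), Ldb1, a cofactor of LIM factors (2.34), and Get3, of the tail-anchored protein pathway (2.23), were the others.

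The genes with the most negative differences were higher in Ctrl28 than in Ctrl on every array. Clcn3, a vesicular chloride transporter gene, stood at 799, 720.2 and 807 in IH5D, at 609, 739 and 805 in IH28D, at 568, 369 and 454 in Ctrl and at 992, 1025 and 1289 in Ctrl28, with a difference beyond the controls of -1.38 ± 0.22 (limma adjusted p = 0.00139). Nup54 of the nuclear pore (-1.85), Rap2c, a small GTPase gene (-1.52), Gnal, a G protein subunit gene (-1.39), and Stxbp3, of membrane fusion (-1.32), were the others. Of the immediate early genes, 3 of 39 were more positive beyond the controls and 1 more negative, beside 6.57% and 3.08% of all genes. These were Egr4 (2.20 ± 0.36, adjusted p = 0.00156), Junb (1.61 ± 0.28, adjusted p = 0.00224) and Per1 (1.14 ± 0.30, adjusted p = 0.0253), and below 0 Ptgs2, the inducible cyclooxygenase (-0.92 ± 0.26, adjusted p = 0.0345). For Egr4, Junb and Per1, 0.87, 0.62 and 0.56 of this came from IH28D minus IH5D, and the rest from lower signals in Ctrl28 than in Ctrl. Fos (0.86 ± 0.79, adjusted p = 0.529) and Arc (1.79 ± 0.67, adjusted p = 0.0998) did not pass.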

How the data were processed

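Hippocampal RNA was measured on 18 arrays. The authors calculated MAS5 signals and deposited them as log2 values, and their scaling left every array with the same trimmed mean. The version of MAS5 is not given in the sources used here. The deposited log2 values were tested with limma 3.58.1 (R 4.3.3) in 1 model of 18 arrays with a mean per group, trended variances and 12 residual degrees of freedom. Kept were genes whose unlogged signal averaged over 20, by their brightest probe set, and p-values were adjusted (Benjamini-Hochberg) over 11656 genes. Of 45101 probe sets, 932 with several genes and 9160 without a named gene were left out, and 34754 of 34945 with 1 gene matched RefSeq by gene ID. The number of arrays limits the precision. Genes were named by rule: the largest changes past adjustment (none), the 3 smallest p in each list described, the 5 largest differences beyond the controls each way, and a fixed set of 45, of which 42 were tested. Other genes were chosen after their values were seen, as were the promoters printed. Members and all 52 lists were chosen with earlier results of these data known. The model was tested on simulated data. Alternatives changed the arrays, weights, filters, scaling, probe sets, replicate block and test.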

Additional observations from a re-analysis of the deposited data

Results flagged for a closer look

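The step from IH5D to IH28D differed from that from Ctrl to Ctrl28 in 1125 genes by the interaction test of limma. The largest such differences on the log2 scale were those of Nnat (2.51), Cacng3 (2.49), Kif1a (2.40), Ldb1 (2.34) and Get3 (2.23) above 0, and of Nup54 (-1.85), Rap2c (-1.52), Gnal (-1.39), Clcn3 (-1.38) and Stxbp3 (-1.32) below, among genes with a mean signal of at least 100 in IH28D or IH5D. None of these 10 had an unadjusted p below 0.05 for IH28D against IH5D alone.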

How the results depend on the processing

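The count of 0 genes between IH28D and IH5D was 1 with the 6 arrays alone (Jpt1, adjusted p = 0.0049), 3 with the replicate block on these 6 arrays (Jpt1, and Fos and Arc at adjusted p = 0.047) and 0 with the replicate block on 18 arrays. Without single arrays it was 0 to 1, the 1 being Lamtor1 without the first Ctrl28 array. It was 0 in the other settings, the methods' Welch test included, which gave 882 genes without adjustment on unlogged signals. Arrays of the same number in both groups deviated with correlations of -0.237, 0.0762 and 0.154. The labels do not say whether equal numbers mark a shared day, and correlations over 3 arrays per group cannot decide it. The count of 837 at an unadjusted p below 0.05, added after the data were seen, became 1438 with the 6 arrays alone, 1368 without the Ctrl28 group, 1679 with array weights and 1441 when each probe set was tested. Without single arrays it was 505 to 1457, with 505 lacking the second IH28D array and 541 the second IH5D array. The 1125 genes beyond the controls became 693 with 12 arrays alone (added after the data were seen), 4449 with array weights, 3535 with the gap as covariate, 607 with median centring and 990 with the replicate block, and 529 to 3331 without single arrays. Why these counts moved was not tested. Of the values of named genes under alternatives, 2072 moved by less than the spread between arrays and 67 by more, and 1 came past the threshold. For the 10 genes beyond the controls 215 stayed past it and 14 did not. Quantile scaling and median centring shifted the median of all genes to -0.025 and -0.030. Signals near 20 are the least certain.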
